A study of Mus musculus with 12 samples.

Results

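The 7 genes described here, Alas1, Alad, Uros, Urod, Cpox, Ppox and Fech, encode enzymes of heme synthesis and were chosen by name from the GENCODE M21 mouse annotation, 7 of 21755 protein-coding genes on chromosomes 1 to 19 and X. They were chosen with earlier results of these data known, so the shares set beside all genes are a description and not a test. The measurement was the set of YY1 ChIP-seq peaks lying in the body of each gene or within 5 kb of it on either side, taken separately from the peak list of each library. At least 1 YY1 peak was found at all 7 genes in 3 of the 4 libraries and at 6 genes in the remaining one. Among all protein-coding genes 43.7% to 54.6% had a peak, depending on the library. A peak over the own start in all 4 libraries was found at 6 of the 7 genes, against 28.9% of 21723 protein-coding genes. Alas1 was the exception, with no peak in 1 XistΔ/Δ library. The peak widths of WT and XistΔ/Δ overlapped at each of the 7 genes. Among all genes with a peak in all 4 libraries, XistΔ/Δ was wider without overlap at 1.32% and narrower without overlap at 6.28%.

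Heme is the iron-holding ring of hemoglobin, cytochromes and catalase. Its synthesis starts in the mitochondrion, where glycine and succinyl-CoA are joined, passes through the cytosol, where the ring is built and trimmed, and ends in the mitochondrion again, where the ring is oxidized and iron is inserted. All cells need some heme, and red cell precursors in the bone marrow make by far the most. The zinc-finger protein YY1 regulates transcription mainly from promoters and enhancers, and the Xist locus is among the places it binds. Other steps of the pathway were not analysed here.

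The libraries came from Lin- cells, the bone marrow cells left after removal of cells bearing markers of mature lineages, TER-119 of red cell precursors among them, and each mixed several kinds of stem and progenitor cell. A peak carried by a part of the cells and a weaker peak in all of them therefore cannot be told apart, and since no expression data were used here the cell label was not checked against marker genes. All mice were 3-month-old females of strain 129Sv4/Jae x B6. The genotype was wild type (WT) in 2 libraries and Xist knockout (XistΔ/Δ) in the other 2, in which both copies of Xist, the long noncoding RNA that silences the inactive X chromosome, had been floxed and were deleted in blood cells by a Cre recombinase driven by Vav1 sequences (Vav-iCre). Neither the transgene status of the WT mice nor whether each library came from a separate animal is given in the labels, so any p-value measures only the spread between these libraries. At the start of Xist itself both WT libraries had a peak (3083 and 3222 bp wide) and neither XistΔ/Δ library did.

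Depth differed between the replicate numbers more than between the genotypes. The lists of WT replicate 1 and XistΔ/Δ replicate 1 rested on 24.9 M and 23.1 M tags (the reads counted by the peak caller, M for mega) and held 9553 and 10075 peaks, while those of WT replicate 2 and XistΔ/Δ replicate 2 rested on 50.0 M and 59.5 M tags and held 15933 and 18113 peaks. The median peak was 892 bp wide in WT replicate 1, 925 bp in WT replicate 2, 777 bp in XistΔ/Δ replicate 1 and 892 bp in XistΔ/Δ replicate 2, and the most frequent width in each list was 501 bp. The deposited score is the same for every peak, so the width of a peak was used as the graded value. The deeper library of each genotype had the wider median peak, so a percentile is given beside the width: the place of a gene's widest peak among the widest peaks of all protein-coding genes with a peak in the same library, with 0 where the gene had none.

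**Figure D1:**
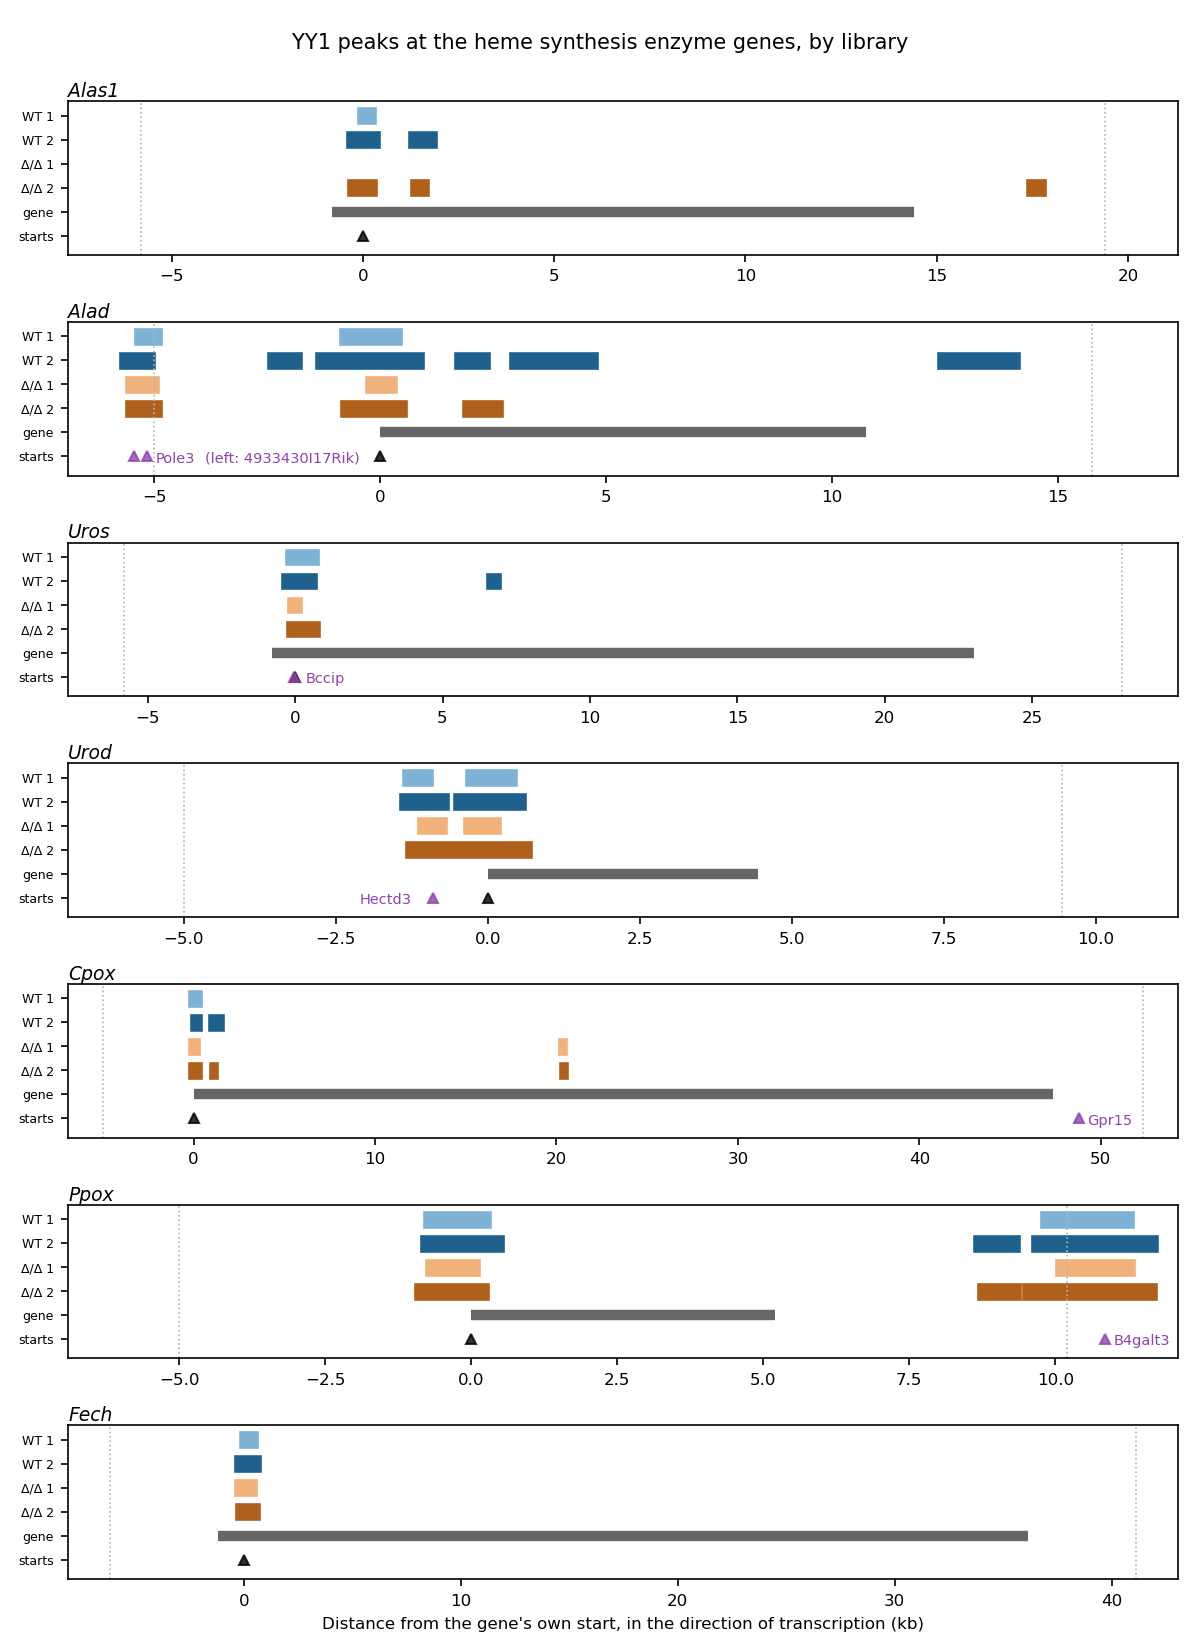
Position of each YY1 peak at the 7 genes in the 4 libraries, with a panel for each gene in pathway order. The horizontal axis is the distance in kb from the gene's own start in the direction of transcription, coloured bars are peaks, the grey bar is the gene body, dotted lines lie 5 kb outside it, the black triangle is the gene's own start and purple triangles are starts of other protein-coding genes. Bars stack over the black triangle in all 4 rows for 6 genes, and for Alas1 in all rows except that of XistΔ/Δ replicate 1.

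Merging overlapping peaks across the libraries gave 19 regions at the 7 genes. The map of the loci shows that 8 of them held a peak in all 4 libraries, and 6 of these 8 covered the gene's own start, taken here as the start of its lowest-numbered GENCODE transcript. The remaining pair lay at other genes' starts, at Pole3 beside Alad and at B4galt3 beside Ppox. At Alas1 and Fech, with 13 and 15 annotated starts, the transcript that set the own start is not marked as principal in GENCODE. Of the other regions, 4 were called in both replicate 2 libraries only, 4 in WT replicate 2 only, 1 in XistΔ/Δ replicate 2 only, 1 in both XistΔ/Δ libraries only and 1 in all libraries but XistΔ/Δ replicate 1. No region was called in both WT libraries only. Among all 19764 merged regions of the genome, 39.2% were called in all 4 libraries, 18.0% in both replicate 2 libraries only, 8.54% in WT replicate 2 only and 0.885% in both XistΔ/Δ libraries only.

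Alas1 (chr9:106233455-106248654, minus strand) encodes the housekeeping form of aminolevulinate synthase, which makes the first precursor and sets the rate of heme synthesis in most tissues. A peak over its start was 501 bp wide in WT replicate 1, 891 bp in WT replicate 2 and 781 bp in XistΔ/Δ replicate 2, and none was called in XistΔ/Δ replicate 1. The peak of WT replicate 1 had the most frequent width of its list, and the percentile of the widest peak was 5.66 there, 21.3 in WT replicate 2 and 16.6 in XistΔ/Δ replicate 2, the lowest or next to lowest of the 7 genes in each library. The region (chr9:106247416-106248306) lies on the first exon and 5′ untranslated region, and the start of the noncoding gene 4930500F10Rik on the other strand falls inside it. A further peak in an intron, 1185 to 1939 bp past the start, was called in both replicate 2 libraries only, 755 bp wide in WT and 501 bp in XistΔ/Δ. A 501 bp peak 2948 bp past the end of the gene was called in XistΔ/Δ replicate 2 alone.

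Alad (chr4:62509169-62519918, minus strand) encodes the zinc enzyme that joins a pair of aminolevulinate molecules into porphobilinogen. Its start peak was the widest of the 7 start peaks in WT, at 1405 bp in replicate 1 and 2409 bp in replicate 2. In XistΔ/Δ it was 710 bp in replicate 1 and 1493 bp in replicate 2, narrower within each replicate number, although the wider XistΔ/Δ peak exceeded the narrower WT peak. Alad was also the gene with the most peaks: WT replicate 2 had 6, against 2 in WT replicate 1, 2 in XistΔ/Δ replicate 1 and 3 in XistΔ/Δ replicate 2. Of these, 3 were called in WT replicate 2 alone, namely 1 in an intron (1966 bp wide), 1 downstream of the gene (1845 bp) and 1 upstream (775 bp). An intron region 1628 to 2710 bp past the start was called in both replicate 2 libraries, 798 bp wide in WT and 900 bp in XistΔ/Δ. The peak at the start of the neighbouring gene Pole3, which encodes a subunit of DNA polymerase epsilon, was 636, 794, 758 and 812 bp wide in WT replicates 1 and 2 and XistΔ/Δ replicates 1 and 2. It lies just inside the 5 kb limit, 4821 to 4993 bp from Alad. Just outside the limit, on the other side of the gene, lay a 3606 bp peak of WT replicate 2 at 5168 bp and peaks of the other libraries at 5991 to 6409 bp.

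Uros (chr7:133686243-133710072, minus strand) encodes uroporphyrinogen III synthase, which closes the linear tetrapyrrole into the ring. Its start peak was 1145 bp wide in WT replicate 1, 1220 bp in WT replicate 2, 501 bp in XistΔ/Δ replicate 1 and 1170 bp in XistΔ/Δ replicate 2. XistΔ/Δ replicate 1 was thus far narrower than the other 3 libraries, which lay close together, and had the most frequent width. The peak cannot be assigned to Uros alone, since Bccip, a gene for a BRCA2- and CDKN1A-interacting protein, starts 52 bp away on the opposite strand and its start lies in the peak in all 4 libraries. A 501 bp peak in WT replicate 2 alone lay 6491 to 6991 bp past this start, over the start of a shorter Uros transcript 6665 bp downstream. The stretches at both starts, from the GRCm38.p6 assembly (the mm10 build) on the strand of Uros, are shown because 1 was covered by a peak in every library and the other in a single one; capitals mark the first transcribed base of each start, in the first stretch that of Bccip before that of Uros.
Uros and Bccip starts, chr7:133709267-133709347: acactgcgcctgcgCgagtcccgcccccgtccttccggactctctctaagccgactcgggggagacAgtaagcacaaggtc
Uros second start, chr7:133702587-133702766: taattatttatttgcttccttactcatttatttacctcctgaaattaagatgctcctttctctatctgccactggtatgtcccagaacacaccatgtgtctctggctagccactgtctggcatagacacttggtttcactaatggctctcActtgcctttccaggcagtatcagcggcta

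Urod (chr4:116989965-116994413, minus strand) encodes the decarboxylase that turns uroporphyrinogen into coproporphyrinogen in the cytosol. Its start peak was 855 bp wide in WT replicate 1, 1195 bp in WT replicate 2, 626 bp in XistΔ/Δ replicate 1 and 2091 bp in XistΔ/Δ replicate 2, so both the narrowest and the widest value were from XistΔ/Δ. The start of Hectd3, a ubiquitin ligase gene on the opposite strand, lies 904 bp away. It had a peak of its own in 3 libraries, of 501 bp in WT replicate 1, 814 bp in WT replicate 2 and 501 bp in XistΔ/Δ replicate 1, whereas in XistΔ/Δ replicate 2 a single peak spanned both starts. Summed over the merged region (chr4:116993688-116995872), the peaks covered 1356, 2009, 1127 and 2091 bp in WT replicates 1 and 2 and XistΔ/Δ replicates 1 and 2, and the deeper libraries had the larger sum in each genotype. Urod was the only one of the 6 genes found in the RefSeq promoter table whose promoter held the letters AANATGGC, the core of the known YY1 motif, searched on both strands. The match started at position -37 from the start on the strand of the gene and overlapped a match to the shorter ATGGCG at -34. It is marked in capitals in the promoter sequence, which is from GRCm38.p6 on the strand of Urod.
Urod promoter, chr4:116994384-116994563: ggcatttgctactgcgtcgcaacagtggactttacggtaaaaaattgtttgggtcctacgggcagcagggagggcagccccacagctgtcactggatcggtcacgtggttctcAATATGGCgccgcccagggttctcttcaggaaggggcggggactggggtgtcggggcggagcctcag

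Cpox (chr16:58670292-58717636, plus strand) encodes coproporphyrinogen oxidase of the mitochondrial intermembrane space. Its start peak varied least among the 7, at 767 bp in WT replicate 1, 672 bp in WT replicate 2, 657 bp in XistΔ/Δ replicate 1 and 777 bp in XistΔ/Δ replicate 2. A second region in an intron, 795 to 1698 bp past the start, was called in both replicate 2 libraries only, 904 bp wide in WT and 501 bp in XistΔ/Δ. Cpox also held the single region of the 19 that was called in both XistΔ/Δ libraries and in neither WT library (chr16:58690367-58690918), in an intron 20075 to 20626 bp past the start. Both of its peaks had the most frequent width, 501 bp, and no peak wider than that was called there in any library. The centre of the region is shown, from GRCm38.p6 on the plus strand, as the only place at these genes where the presence of a peak followed the genotype. The region was 44.6% G and C, had no repeat-masked base and held neither AANATGGC nor ATGGCG on either strand.
Cpox intron region, chr16:58690542-58690741: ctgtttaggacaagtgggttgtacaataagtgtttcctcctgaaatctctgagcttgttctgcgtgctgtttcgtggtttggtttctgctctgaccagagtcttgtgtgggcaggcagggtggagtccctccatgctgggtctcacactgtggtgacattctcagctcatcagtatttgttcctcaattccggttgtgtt

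Ppox (chr1:171275990-171281186, minus strand) encodes protoporphyrinogen oxidase, which makes protoporphyrin in the mitochondrion. Its start peak was 1163 bp wide in WT replicate 1, 1430 bp in WT replicate 2, 935 bp in XistΔ/Δ replicate 1 and 1296 bp in XistΔ/Δ replicate 2. It overlapped the 3′ untranslated exon of the neighbouring gene Usp21. The widest peak within 5 kb of Ppox was a different one, at the start of the galactosyltransferase gene B4galt3 on the 3′ side of Ppox, 4229 to 4800 bp from the gene. In WT that peak was 1627 bp (replicate 1) and 2179 bp (replicate 2) wide, and in XistΔ/Δ it was 1369 bp and 2311 bp wide. A smaller peak beside it was called in both replicate 2 libraries only, 794 bp wide in WT and 757 bp in XistΔ/Δ. Just outside the 5 kb limit, on the other side of Ppox, all 4 libraries had a peak at 5372 to 5841 bp.

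Fech (chr18:64452914-64490251, minus strand) encodes ferrochelatase, which inserts ferrous iron into protoporphyrin as the last step. It had a single peak in every library, over its start, of 898 bp in WT replicate 1, 1276 bp in WT replicate 2, 1060 bp in XistΔ/Δ replicate 1 and 1159 bp in XistΔ/Δ replicate 2. Both XistΔ/Δ values lay between the WT values. The regions at the starts of Alad, Cpox and Fech were the 3 of the 7 start regions with no start or exon of another gene beneath them.

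**Figure D2:**
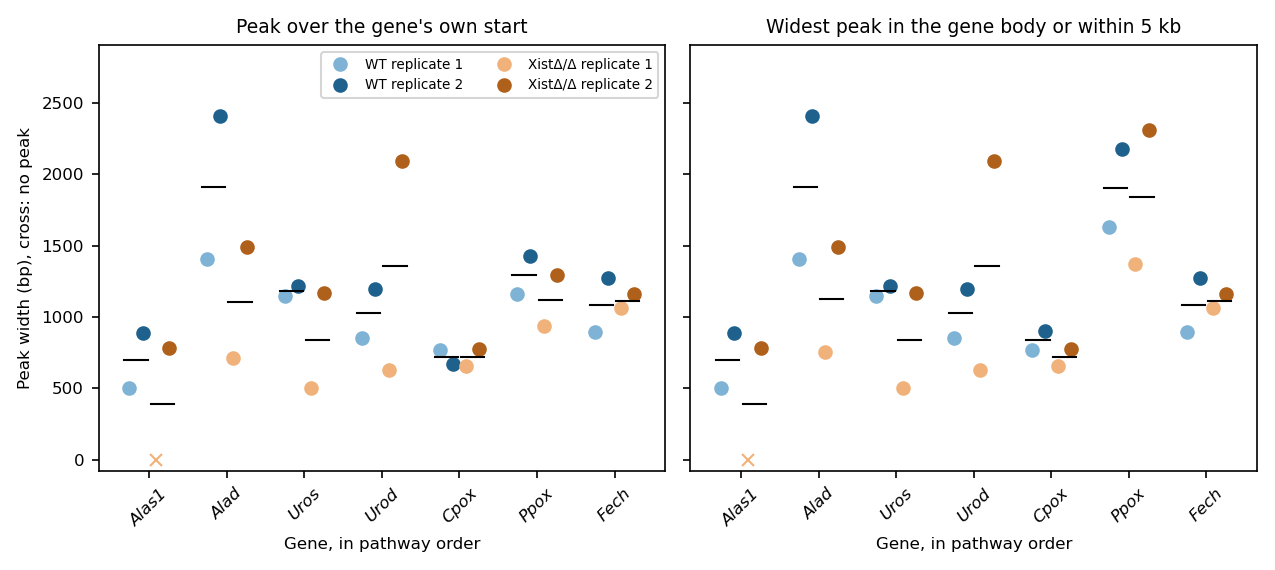
Width of the YY1 peak over each gene's own start (left) and of the widest peak in the gene body or within 5 kb (right), in bp, for the 7 genes in pathway order. Points are single libraries, short black lines are the mean of the 2 libraries of a genotype with a missing peak taken as 0, and the cross marks Alas1 in XistΔ/Δ replicate 1. The points of both genotypes overlap at each gene, and the right panel differs clearly from the left at Ppox, where the widest peak belongs to the start of B4galt3.

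The plot of widths shows how the start peaks were ordered. In WT the mean was 1907 bp ± 710 (SD, n = 2) at Alad, 1296.5 bp ± 189 at Ppox, 1182.5 bp ± 53.0 at Uros, 1087 bp ± 267 at Fech, 1025 bp ± 240 at Urod, 719.5 bp ± 67.2 at Cpox and 696 bp ± 276 at Alas1. Neighbours in this order overlapped in range, except that both values of Urod were above both values of Cpox. In XistΔ/Δ Urod came first at 1358.5 bp ± 1036, and Cpox at 717 bp ± 84.9 and Alas1 at 390.5 bp ± 552 were again the lowest. The centre of the start peak was never farther from the annotated start than the -337.5 bp of Ppox in XistΔ/Δ replicate 2. The centres of Ppox lay upstream of it in all 4 libraries, from -337.5 to -156.5 bp, and those of Fech and Cpox downstream in all 4, from 83.5 to 222.5 bp and from 8 to 129.5 bp.

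Presence of a peak was next set against all protein-coding genes. Peaks were found at 7, 7, 6 and 7 of the 7 genes in WT replicates 1 and 2 and XistΔ/Δ replicates 1 and 2, where 43.7%, 53.1%, 44.1% and 54.6% of all protein-coding genes had one. All 4 libraries had a peak at 6 of the 7 genes, against 40.0% of all protein-coding genes, and a peak over the own start in all 4 libraries was found at 6 of 7, against 28.9% of all genes with a start so defined. The pattern of Alas1, a peak in every library but XistΔ/Δ replicate 1, was shared by 3.18% of all genes. The total number of peaks at the 7 genes was 10 in WT replicate 1, 18 in WT replicate 2, 10 in XistΔ/Δ replicate 1 and 15 in XistΔ/Δ replicate 2, so the genotypes were equal in replicate 1 and WT was higher in replicate 2. The difference of XistΔ/Δ minus WT in the mean total was -1.5 peaks, and it turned to 2.5 without WT replicate 2 and to 1 without XistΔ/Δ replicate 1. The windows are not of equal size, since the gene bodies run from 4449 bp for Urod to 47345 bp for Cpox.

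**Figure D3:**
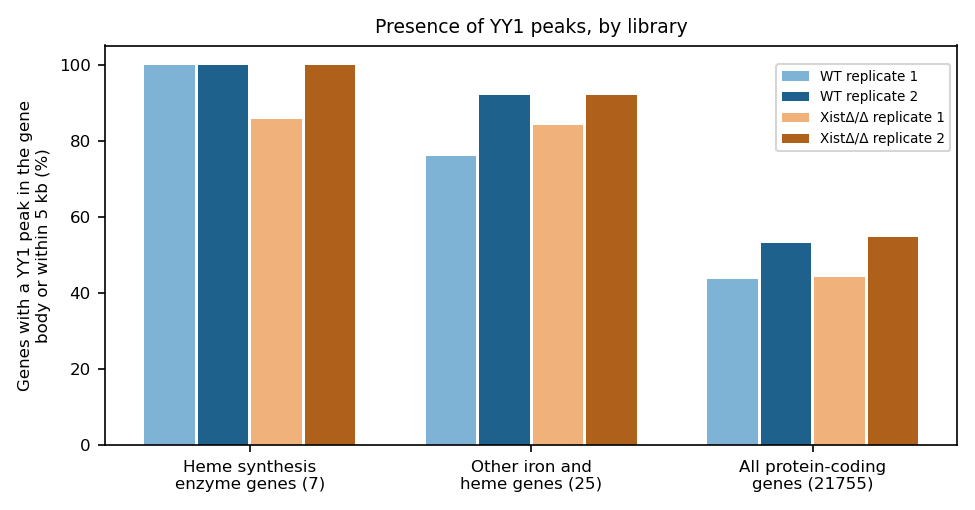
Share of genes with at least 1 YY1 peak in the gene body or within 5 kb, in percent, for the 7 heme synthesis enzyme genes, 25 other iron and heme genes and all 21755 protein-coding genes. Each bar is 1 library and the axis starts at 0. The bars of the heme synthesis genes stand at 7, 7, 6 and 7 of 7 genes, above those of all protein-coding genes in every library, and the replicate 2 libraries have the higher bars among all genes.

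The genotypes were then compared gene by gene on the width of the widest peak. The difference of XistΔ/Δ minus WT was -305.5 bp at Alas1, with its missing peak taken as 0, -781.5 bp at Alad, -347 bp at Uros, 333.5 bp at Urod, -118.5 bp at Cpox, -63 bp at Ppox and 22.5 bp at Fech. The genotypes overlapped at every gene, and the smallest p was 0.667 in a two-sided exact permutation test. With 2 libraries against 2 no p below 0.333 can be reached, so no difference in width could have passed a threshold. At Alad and Cpox the difference was larger than the SD of either genotype (710 and 520 bp at Alad, 96.9 and 84.9 bp at Cpox). The widest peak was not the same one in every library at these genes. At Cpox it was the intron peak (904 bp) in WT replicate 2 and the start peak in the other libraries. At Alad it was the Pole3 peak (758 bp) in XistΔ/Δ replicate 1 and the start peak elsewhere. On the start peaks the difference was -2.5 bp at Cpox (SD 67.2 and 84.9 bp) and -805.5 bp at Alad (SD 710 and 554 bp). The tests and counts that follow are for the widest peak unless start peaks are named. After Benjamini-Hochberg adjustment over the 8712 protein-coding genes with a peak in all 4 libraries, the smallest value was 1. Both XistΔ/Δ values were above both WT values at 0 of the 6 genes with 4 peaks and below both at 0, where 1.32% and 6.28% of all genes with 4 peaks met these rules. Leaving out 1 library could turn the direction of the difference at 4 genes. The difference turned to 85 bp at Alas1 without XistΔ/Δ replicate 1 and to -399 bp at Urod without XistΔ/Δ replicate 2. At Ppox it turned to 213 bp without WT replicate 2 and to 408 bp without XistΔ/Δ replicate 1, and at Fech to -166.5 bp without WT replicate 1 and to -27 bp without XistΔ/Δ replicate 2. At the remaining 3 genes the direction held but the size did not. Leaving out single libraries gave -1283.5 bp (without WT replicate 1) to -279.5 bp (without WT replicate 2) at Alad, -681.5 bp (without XistΔ/Δ replicate 2) to -12.5 bp (without XistΔ/Δ replicate 1) at Uros and -187 bp (without WT replicate 1) to -50 bp (without WT replicate 2) at Cpox. With 1 library left out, the genotypes no longer overlapped at 4 of 6 genes without WT replicate 1, at 1 of 6 without WT replicate 2, at 2 of 7 without XistΔ/Δ replicate 1 and at 5 of 6 without XistΔ/Δ replicate 2, where 52.2%, 38.0%, 53.8% and 67.1% of all genes with 3 peaks did not overlap. For the start peaks the differences were -805.5 bp at Alad, -2.5 bp at Cpox and -181 bp at Ppox, with the other 4 genes as above, and the smallest p was again 0.667.

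Within replicate 1, 6 of the 7 genes had a narrower widest peak in XistΔ/Δ than in WT, and within replicate 2 this held for 5 of 7. Among all genes with a peak in the same replicate number it held for 63.1% and 47.6%. Of the 6 genes with 4 peaks, 3 (Alad, Uros and Cpox) were narrower within both numbers, against 34.7% of all genes with 4 peaks. At Cpox this set the intron peak of WT replicate 2 against the start peak of XistΔ/Δ replicate 2. The replicate 1 list of XistΔ/Δ had the narrower median peak, and the percentile compares each gene with its own list. By percentile, 5 of the 7 genes were lower in XistΔ/Δ in each replicate number, against 46.2% and 44.5% of all genes with a peak in the same replicate number. Alas1, Alad, Uros and Cpox were lower within both replicate numbers, 4 genes of 7 against 18.0% of all genes with a peak. Ppox was higher within both, by the B4galt3 peak, 1 gene of 7 against 25.4%. The base of the 18.0% and 25.4% was 12241 genes, of which 8712 had 4 peaks. A gene for which both genotypes lacked a peak under the same replicate number was tied there. Such a gene could not count as lower or higher within both. Of the 7 genes, 6 had 4 peaks, so these shares are not a like-for-like base. On the start peaks alone 4 genes were again lower within both numbers, against 17.4% of all genes with a start peak. The base of this share, 9313 genes with a start peak in any library, has the same limit. These 4 genes were Alas1, Alad, Uros and Ppox, while Cpox was higher within both. The Cpox start peak went only from 25.06 to 25.13 in replicate 1, where it narrowed from 767 to 657 bp. In replicate 2 it went from 8.40 to 14.3.

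The sizes of these differences in percentile varied between the replicate numbers. Alad went from 72.5 to 31.0 in replicate 1 and from 88.8 to 61.7 in replicate 2. The 31.0 was that of the 758 bp peak at the start of Pole3, since the Alad start peak of XistΔ/Δ replicate 1 was 710 bp wide. Uros went from 57.8 to 7.04 in replicate 1 and from 44.2 to 42.3 in replicate 2. Urod went from 36.1 to 14.8 in replicate 1 and in the opposite direction, from 42.5 to 83.5, in replicate 2, where its peak spanned the start of Hectd3 as well. Fech went from 39.2 to 63.8 in replicate 1 and went from 46.9 to 40.9 in replicate 2. Cpox was at 27.3 and 26.2 in replicate 1 and at 23.1 and 16.1 in replicate 2, where the WT value was that of its intron peak. The median percentile of the 7 genes was 39.2, 44.2, 26.2 and 42.3 in WT replicates 1 and 2 and XistΔ/Δ replicates 1 and 2. That of all protein-coding genes with a peak in any library was 35.6, 47.0, 36.2 and 48.5 in the same order. These latter values are lowered by genes without a peak in the library at hand, which take the bottom percentile. Genes with a peak in the library had a median widest peak of 1032, 1318, 906 and 1301 bp in that order. The gene at the median of the 7 had a narrower one in each library. It was Fech (898 bp), Uros (1220 bp), Cpox (657 bp) and Uros (1170 bp). The genotype difference in the median of the 7 genes was -7.46 points, and 0.57 points without XistΔ/Δ replicate 1.

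**Figure D4:**
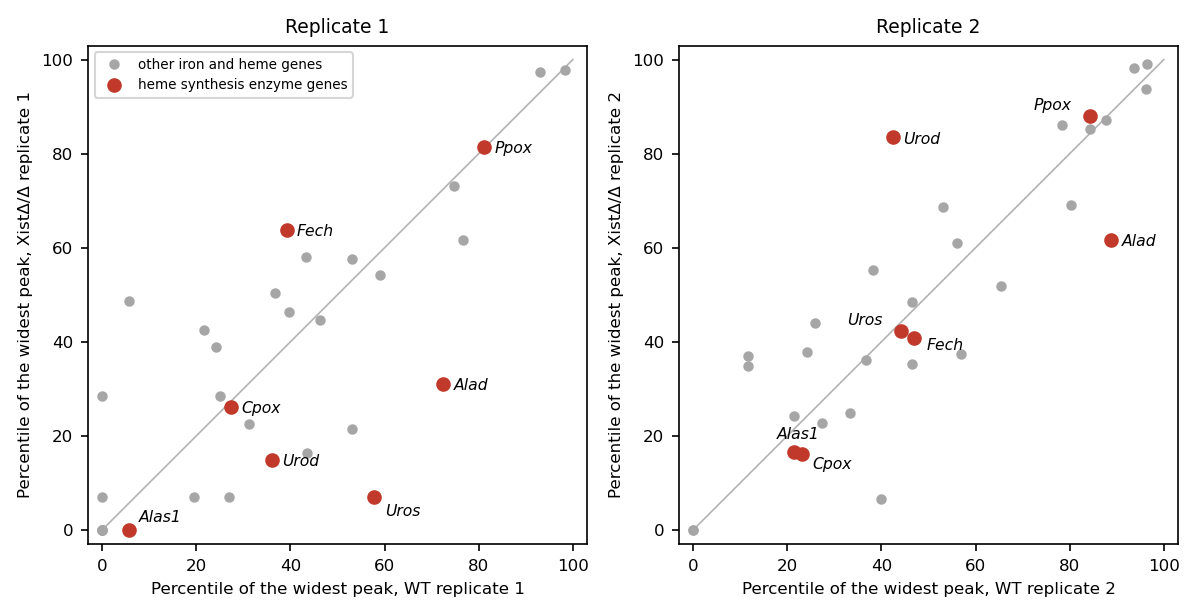
Percentile of the widest YY1 peak in XistΔ/Δ against that in WT, for replicate 1 (left) and replicate 2 (right). Red points are the 7 heme synthesis enzyme genes, grey points are 25 other iron and heme genes, and the line marks equal percentiles. Alad lies below the line in both panels (72.5 to 31.0 and 88.8 to 61.7), whereas Urod lies below it on the left and above it on the right. The Alad value of XistΔ/Δ replicate 1 (31.0) is that of the peak at the start of Pole3.

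The plot of percentiles includes 25 other genes of iron supply, heme transport, heme breakdown and their control. Peaks were found at 19 of the 25 in WT replicate 1, 23 in WT replicate 2, 21 in XistΔ/Δ replicate 1 and 23 in XistΔ/Δ replicate 2, and 19 had one in all 4 libraries, against the 40.0% of all protein-coding genes given above. Slc25a37, which encodes the mitochondrial iron importer mitoferrin, and Hmox1, the inducible heme oxygenase that breaks heme down, had no peak in any library. The presence of a peak differed between the libraries at 4 genes. Clpx, a subunit of a mitochondrial protease that acts on aminolevulinate synthase, had peaks in the replicate 2 libraries only, of 1108 bp in WT and 1065 bp in XistΔ/Δ. Blvra, a biliverdin reductase, showed the same pattern, with 1165 and 628 bp. The other biliverdin reductase gene, Blvrb, lacked a peak in WT replicate 1 only, and so did Tmem14c, which encodes a mitochondrial membrane protein needed for porphyrin import in red cell precursors. Blvrb had 751 bp in WT replicate 2 and 721 and 1051 bp in XistΔ/Δ, and Tmem14c had 892 bp in WT replicate 2 and 501 and 907 bp in XistΔ/Δ.

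The 3 of the 25 genes with the highest mean percentile were Iscu, Fth1 and Hmox2. At Iscu, the scaffold on which iron-sulfur clusters are assembled, the widest peak of WT measured 2971 bp in replicate 1 and 3239 bp in replicate 2, and that of XistΔ/Δ measured 2336 bp and 4176 bp. Fth1, the ferritin heavy chain, had 2209 bp and 3232 bp in the WT libraries against 2295 bp and 2766 bp in the XistΔ/Δ libraries. For Hmox2, the constitutive heme oxygenase, the values were 1452 bp and 1952 bp in the WT libraries against 1206 bp and 2203 bp in the XistΔ/Δ libraries. That widest peak did not cover the own start of Hmox2, where the peak was 501 and 972 bp wide in WT, absent in XistΔ/Δ replicate 1 and 1288 bp wide in XistΔ/Δ replicate 2. The widths of the genotypes overlapped at all 3 genes. Of the 25 genes, 0 had both XistΔ/Δ values above or both below the WT values, 2 were lower in XistΔ/Δ by percentile within both replicate numbers and 5 were higher within both.

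The letters AANATGGC were found in 1 of 9 promoters of the 6 heme synthesis genes in the RefSeq promoter table, that of Urod shown above, and in 6.48% of 20061 promoters of protein-coding genes of the same 300 bases. The shorter ATGGCG, which shares letters with AANATGGC in some matches, was likewise in 1 of the 9, against 11.1% of all. Over the whole merged start regions AANATGGC was present at 2 of the 7 genes, Urod and Fech, the latter at position 114 from the start, against 30.5% of 7921 regions covering a start and called in at least 2 libraries. ATGGCG was present at 4, Alad, Uros, Urod and Fech, against 52.2% of these regions. Region lengths differ, from 801 to 2409 bp at the 7 genes with a median of 1451 bp over all 7921. In the central 501 bases each of the motifs was present at 1 of 7, at Fech, against 13.4% of regions for AANATGGC and 32.2% for ATGGCG. The merged Urod region also takes in the start of Hectd3, and the match at -37 lay outside its central bases. The Urod start peaks were centred at 53 and 28 bp in WT replicates 1 and 2. In XistΔ/Δ replicates 1 and 2 they were centred at -91.5 and -320 bp. Away from the start regions, the central 501 bases held AANATGGC in the Cpox intron region called in both replicate 2 libraries and in the B4galt3 region beside Ppox. They held ATGGCG in the region downstream of Alas1 and in the Pole3 region beside Alad. The region downstream of Alad held AANATGGC outside its central bases, and the region upstream of Alad and the B4galt3 region held ATGGCG outside theirs. The share of all regions away from starts with a match was not computed. A match describes the letters only, and a region without them says nothing of whether YY1 was bound. The promoters of the 6 genes ranged from 48.7% to 73.3% G and C, and 6 of the 9 were above the median of all coding promoters, 57%.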

How the data were processed

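YY1 ChIP-seq peaks of 4 libraries were analysed, and the 8 histone-mark samples of the series were not analysed here. According to the study's methods, the labels and the file headers, the authors trimmed reads with Trim Galore, aligned them to mm10 with Bowtie2 2.3.5.1, removed reads under mapping quality 30 with SAMtools 1.10 and removed duplicates. They called peaks per library with HOMER 4.9.1 (regions of variable width, peak size and minimum distance 500 bp, at least 4-fold over the local background, FDR 0.001), and no input library is named in the command. The tag threshold set by that FDR was 22, 33, 22 and 37 tags in WT replicates 1 and 2 and XistΔ/Δ replicates 1 and 2. The deposited files hold the start and end of each peak and a score, which the authors left at 1 for every peak and which was not used. Signal between peaks was not measured, so an absent peak means one below the threshold of that library.

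Gene bodies were taken from GENCODE M21 (GRCm38) and extended by 5 kb, and a peak counted with at least 1 bp of overlap. Groups and replicate numbers came from the sample labels. Widths were compared between genotypes with a two-sided exact permutation test per gene, 2 libraries against 2, and Benjamini-Hochberg adjustment over all protein-coding genes with a peak in all 4 libraries, using Python 3.11.15, NumPy 2.4.6 and SciPy 1.17.1. The scripts were tested on simulated data. All 7 genes are named, and of 25 textbook iron and heme genes those with no peak, with peaks in some libraries only and the 3 with the highest mean percentile are named. The 3 other genes with the nearest percentile profile are given too. The genes and lists were chosen with earlier results of these data known. Promoters (250 bases before to 50 after a start) came from RefSeq on GRCm38.p6, and 6 of the 7 genes were in that table. Alternatives were other windows, overlap rules, peak widths and list lengths, summed widths, leaving out each library and the replicate number as a block.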

Additional observations from a re-analysis of the deposited data

How the results depend on the processing

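Over 150 alternative values, 8 differences in the width of the widest peak turned direction. XistΔ/Δ minus WT in the mean number of the 7 genes with a peak was -0.5. It ran from -1 to 0 when single libraries were left out, and moved to 0 with only peaks wider than the shortest of each list. The shortest width was 406 bp in XistΔ/Δ replicate 1 and 501 bp in each other list, so this filter kept 501 bp peaks in that library alone. With only peaks above 501 bp in all lists, the difference stayed at -0.5. The difference in the total number of peaks was -1.5 and ran from -5.5 to 2.5 when single libraries were left out, and that in the median percentile was -7.46 and ran from -15.5 to 0.57. The number of genes whose genotypes did not overlap in width was 0, and 1 to 5 when single libraries were left out, beside shares of all genes of 38.0% to 67.1%, since this leaves 1 library against 2. With the replicate number as a block, 3 of the 6 genes with 4 peaks (Alad, Uros and Cpox) were narrower in XistΔ/Δ within both numbers, against 34.7% of all genes with 4 peaks, with a smallest possible p of 0.5 in an exact sign-flip test. The labels do not say what the replicate number marks, and deviations of same-numbered libraries correlated at 0.263 over 8712 genes, which were not independent. With widths summed over the peaks at a gene the difference turned to -73.5 bp at Urod and 297 bp at Cpox. Leaving out single libraries gave a range of -696 to 85 bp at Alas1, -1283.5 to -279.5 bp at Alad, -681.5 to -12.5 bp at Uros, -187 to -50 bp at Cpox, -399 to 1066 bp at Urod, -534 to 408 bp at Ppox (213 bp without WT replicate 2) and -166.5 to 211.5 bp at Fech (-27 bp without XistΔ/Δ replicate 2). The cause of these changes was not tested. With ATGGCG in place of AANATGGC the start regions with a match went from 2 to 4. With each list reduced to its first 9553 peaks in the deposited order, whose basis is not given in the sources used here, Cpox had no peak in either replicate 2 library, and 5 genes had one in all 4 libraries. With only peaks above 501 bp, an alternative chosen after seeing the data, the count was also 5. A locus under a library's tag threshold has no value in that library, and its distance from the threshold was not measured.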

Other observations

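The protein-coding genes outside both lists whose widest peak followed the median profile of the 7 heme synthesis genes most closely over the 4 libraries were Tex30, at a Euclidean distance of 4.75 percentile points, Pigh at 4.79 and Mgrn1 at 6.07. Tex30 had percentiles of 41.3 in both WT libraries, against 23.1 and 41.6 in XistΔ/Δ replicates 1 and 2. For Pigh they were 37.9 and 42.4 in the WT libraries, against 30.3 and 41.3. The nearness was measured on 4 values per gene and is a description.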
